A study of Homo sapiens with 2 samples.

Results

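MIF and DDT are the subject here, a pair of genes that encode the human cytokine-like tautomerases. They were taken by gene symbol and make up 2 of the 36601 genes counted. Both were chosen by measured values of these same data, namely their lower level in one library than in the other, so that difference is given below as a description. The cells were A549, a human cell line of epithelial type that was established from a lung adenocarcinoma, in 2 single-cell RNA libraries. The control library came from 2D culture, and the squashed library came from cells confined with polydimethylsiloxane (PDMS) micropillars. Cells of both libraries were alive, had 48 h of recovery, and were sorted for having lost a chromosome reporter, which happens in about 1 of 500 cells, per the design text. The sort therefore applies to the control as well, no reporter-positive cells were analysed here, and the sources used here do not name the chromosome with the reporter. With 1 library of 1 cell line for each group there is no replicate error, no test was made, and the 95% intervals, which are exact (Poisson for levels, Clopper-Pearson for shares and ratios), hold the counting error alone.

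MIF (macrophage migration inhibitory factor) and DDT (D-dopachrome tautomerase, also called MIF-2) are small proteins that assemble as trimers and share a fold. Each can interconvert keto and enol forms of model substrates through a proline that becomes the N-terminal residue once the initiator methionine is removed. Both are stored inside many cell types, leave the cell without a classical signal peptide, and act on other cells through the receptor CD74 with its co-receptor CD44. MIF was isolated as a lymphocyte product and is widely expressed in epithelia and in carcinoma lines.

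On GRCh38 with GENCODE 44, MIF (ENSG00000240972) lies at chr22:23894383-23895227 on the plus strand, and DDT (ENSG00000099977) lies at chr22:23970542-23980525 on the minus strand. Their canonical transcripts have 3 exons each and are 557 and 565 nt long. The first coding exon of MIF, of 108 nt at chr22:23894475-23894582 on the plus strand, is printed because it holds the codon of the catalytic proline, the second codon, in capitals.
MIF coding exon 1: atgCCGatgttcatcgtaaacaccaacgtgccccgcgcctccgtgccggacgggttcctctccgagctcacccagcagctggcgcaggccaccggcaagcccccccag

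Over the whole coding sequence, a global alignment of MIF with DDT had 59.01% identical columns. DDT has a near-identical copy, DDTL (ENSG00000099974, chr22:23966888-23972556, plus strand), which lies beside it in the opposite direction. Exons 1 and 2 of DDT, of 135 and 176 nt, each had an exact match over their whole length in DDTL. The last coding exons were of different length, 70 nt in DDT and 118 nt in DDTL. The last coding exon of DDT, at chr22:23971554-23971623 on the minus strand, is printed because it belongs to the exon that tells the pair apart.
DDT coding exon 3: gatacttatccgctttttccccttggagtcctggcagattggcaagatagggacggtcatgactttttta

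The kit reads the 3′ end of a transcript, so the last exon bears most on which gene was counted. Of the 476 windows of 90 bases along the DDT transcript, 223 (46.85%) occurred again in DDTL or elsewhere on the 25 chromosomes searched. Within the last exon of DDT, of 254 nt, 0 of 165 windows did. For MIF the count was 0 of 468 windows. DDTL was counted at 24 UMIs in the control and 8 in the squashed library, against 5191 and 582 for DDT, where a UMI is 1 tagged molecule. Adding DDTL to DDT left the log2 ratio between the libraries at -2.91, against -2.92 for DDT alone. DDTL had too few UMIs to move the sum, so this does not test the effect of the copy on the DDT count. How reads that match both genes were counted was not tested.

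Antisense overlap was the other limit on the counts. The last exon of DDTL covers all 254 nt of the last exon of DDT on the other strand, which is 45.0% of the DDT exon bases. MIF-AS1 (ENSG00000218537, chr22:23894426-23898930, minus strand), an antisense RNA, covers 514 of the 557 exon bases of MIF. It was counted at 30 UMIs in the control and 18 in the squashed library. The sources used here do not say whether the counting used strand, and without it the reads of such partners cannot be told apart.

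The 250 bases before the canonical start of MIF, from RefSeq on GRCh38.p14, are chr22:23894133-23894382 on the plus strand, and are printed to show the letters at the start of a gene that was lower in the squashed library. Capitals mark matches to 3 short motifs searched on both strands, namely the GC box GGGCGG, the core TGACG of a cAMP response element, and the core ACGTG of a hypoxia response element.
MIF upstream: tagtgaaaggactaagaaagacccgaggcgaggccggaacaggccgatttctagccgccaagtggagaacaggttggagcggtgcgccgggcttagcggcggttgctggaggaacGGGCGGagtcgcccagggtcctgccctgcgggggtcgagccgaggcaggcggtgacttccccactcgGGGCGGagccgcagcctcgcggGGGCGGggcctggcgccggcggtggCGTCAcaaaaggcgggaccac

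The MIF stretch held the GC box 3 times and TGACG once, on the reverse strand, and no ACGTG. Among 34943 promoters of this length, the GC box occurred in 42.55%, TGACG in 21.18% and ACGTG in 18.49%. Such matches describe the letters only.

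The control library held 2574 barcodes and the squashed library 3132, of which 1906 and 1930 cells were kept (a minimum of 1000 UMIs and 500 genes, and no more than 20% of UMIs from mitochondrial genes). Kept cells had a median of 12459 UMIs, 2598 genes and a mitochondrial share of 5.77% in the control, against 9331 UMIs, 1790 genes and 7.10% in the squashed library. The libraries had 4 barcodes in common, 2 of them among the kept cells. Levels are given in CPM (UMIs of a gene per 1000000 UMIs of its library). Of 5 epithelial markers, only the keratins KRT8 and KRT18 were well counted. They were at 796 and 1691 CPM for control cells and at 1168 and 557 CPM for squashed cells. The other markers of the list were low. EPCAM was near absent, with 5 UMIs (control) and 0 UMIs (squashed), KRT19 had 67 and 65 UMIs, and CDH1 had 216 and 96 UMIs. The 6 fibroblast markers summed to 7.82 CPM (control) and 6.39 CPM (squashed). The 8 immune markers summed to 15.5 CPM (control) and 23.2 CPM (squashed), mostly from CD68, and PTPRC, CD3E, CD3D, MS4A1 and CSF1R had 0 UMIs in both libraries. The 5 endothelial markers summed to 44.8 CPM (control) and 10.2 CPM (squashed), nearly all of it from EGFL7, while CDH5 and KDR had 0 UMIs in both. The part of EGFL7, depth and mitochondrial share in the levels of MIF and DDT was not tested beyond the groups of cells given below.

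MIF was counted at 8949 UMIs in the control library and 2006 UMIs in the squashed library. Scaled to all UMIs of the kept cells, its control level was 325.6 CPM (95% interval 318.9 to 332.4) and its squashed level 86.0 CPM (82.3 to 89.8). MIF was thus 3.79-fold lower in the squashed library (3.61 to 3.98), a log2 ratio of -1.92 (-1.99 to -1.85). The control level of DDT was 188.9 CPM (183.8 to 194.1) and its squashed level 24.9 CPM (23.0 to 27.1). DDT was 7.57-fold lower (6.95 to 8.26), a log2 ratio of -2.92 (-3.05 to -2.80). The intervals of the libraries did not overlap for either gene, but the genes were chosen by this difference, so nothing is read from that. Intervals this narrow left out 0 even for small ratios, such as that of CD44 at -0.08 (-0.13 to -0.03). The ratio of DDT lay below that of MIF.

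A gene was called measured where 1 of the libraries or both reached 20 CPM, as for 4307 genes. Of these, 220 (5.11%) were lower by 2-fold or more in squashed cells and 47 were higher by 2-fold or more. MIF and DDT were both among the lower genes, which is what they were chosen by, so nothing is read from it. From the lowest ratio upwards, DDT stood 3rd and MIF 35th. Over all measured genes the median log2 ratio was -0.14. Scaling by the trimmed mean of M values (TMM) raised every log2 ratio by 0.15, to a median of 0.02, which left 163 genes lower and 68 genes higher by 2-fold or more. Under TMM the log2 ratio of MIF was -1.77 and that of DDT -2.77.

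The difference between the 2 genes can be read within each library, where depth and scaling cancel. MIF UMIs outnumbered DDT UMIs by 1.72 to 1 in the control and by 3.45 to 1 in the squashed library. Divided by transcript length, which a count of molecules at the 3′ end does not need, the values were 1.75 (1.69 to 1.81) and 3.50 (3.19 to 3.84). In these libraries DDT was thus lower relative to MIF in squashed cells. This restates the difference between the 2 ratios that the genes were chosen by. The intervals did not overlap, but nothing is read from that.

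Cells were next grouped by a clustering in which each gene was centred within its library and in which MIF, DDT, DDTL and MIF-AS1 took no part. The groups are given as numbered states, since no cell annotation was used. State 0 was led by HMMR, CCNB1 and BUB1, genes of late cell cycle, and the share called G2/M was 97.7% in control and 95.2% in squashed cells. At the head of state 1 were the noncoding RNAs SNHG32 and GAS5 with SH3BGRL3, and its cells had few genes, with medians of 1387 and 1305. KCNQ1OT1, NEAT1 and FOS led state 2, which held the deepest cells, at medians of 21746 and 23667 UMIs. Its median mitochondrial share was the highest of states 0 to 3, at 14.3% in control and 12.3% in squashed cells. State 3 had at its head the humanin-like gene MTRNR2L8 with CDC20 and PTTG1. Most of its cells were also called G2/M, 86.7% in the control and 85.9% in the squashed library. State 4 had 56 control and 47 squashed cells and is left out of the ranges below.

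In control cells, MIF was highest in state 3 at 433 CPM (412 to 454) and in state 1 at 414 CPM (393 to 437), whose intervals overlapped. It followed in state 0 at 321 CPM (310 to 333) and was lowest in state 2 at 262 CPM (252 to 272). In squashed cells the order was another one, with 98.1 CPM (86.2 to 111) in state 3, 95.3 CPM (87.8 to 103) in state 0 and 88.7 CPM (82.5 to 95.2) in state 2, all overlapping. State 1 was lowest there, at 67.4 CPM (60.7 to 74.6). In states 0 to 3, each squashed level therefore lay below each control level, and state 1 was near the top in one library and at the bottom in the other.

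**Figure D1:**
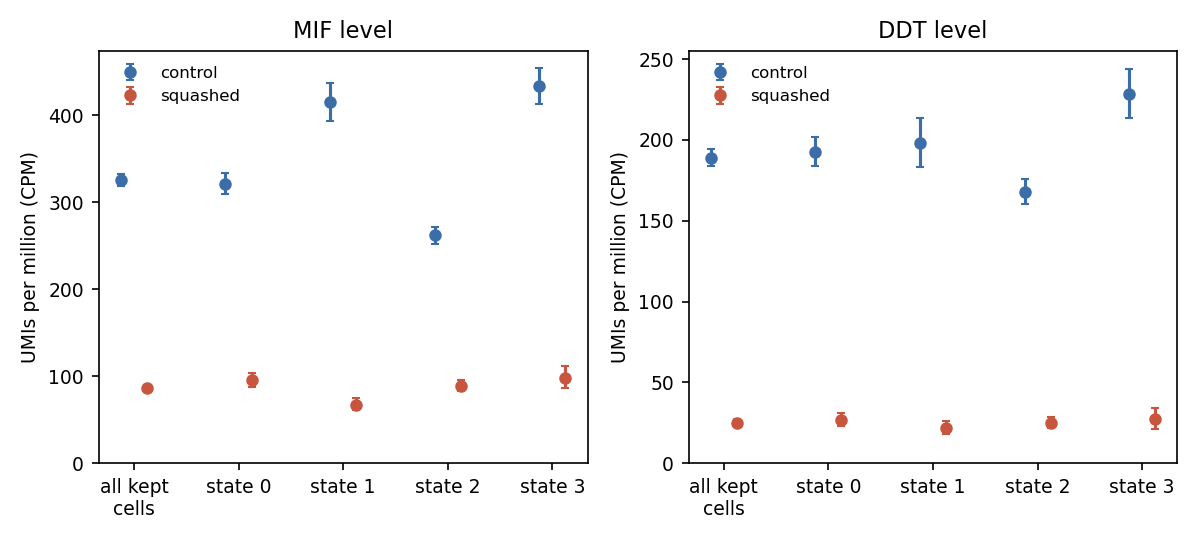
Levels of MIF (left) and DDT (right) in CPM, over all kept cells and in states 0 to 3, with points for the control (blue) and squashed (red) library and bars for exact 95% counting intervals. Control MIF spans 262 to 433 CPM over the states and squashed MIF 67.4 to 98.1 CPM. For both genes the libraries lie apart, which is the difference the genes were chosen by.

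DDT had a flatter profile. In control cells it was at 228 CPM (213 to 244) in state 3, 198 CPM (183 to 214) in state 1, 193 CPM (184 to 202) in state 0 and 168 CPM (160 to 176) in state 2. State 3 overlapped only with state 1, and state 2 overlapped with none of the others. In squashed cells DDT lay between 21.6 CPM (17.8 to 25.8) in state 1 and 27.1 CPM (21.1 to 34.4) in state 3, and the intervals of all 4 states overlapped.

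Within states, the log2 ratio of MIF was -1.75 (-1.88 to -1.63) in state 0, -2.62 (-2.79 to -2.45) in state 1, -1.56 (-1.68 to -1.45) in state 2 and -2.14 (-2.34 to -1.95) in state 3. The ratio of DDT was -2.85 in state 0 (-3.09 to -2.62), -3.19 in state 1 (-3.50 to -2.92), -2.74 in state 2 (-2.95 to -2.53) and -3.06 in state 3 (-3.45 to -2.72). The intervals of MIF in states 1 and 2 were far apart, while those of DDT overlapped in all 4 states. DDT had fewer squashed UMIs per state, 68 to 217 against 246 to 765 for MIF, and so wider intervals. From the lowest, the ratios of both genes ran in the same order, states 1, 3, 0 and 2. Of the measured genes of each state, 4.54% in state 0, 4.69% in state 1, 4.69% in state 2 and 6.04% in state 3 were at least 2-fold lower, and both MIF and DDT were in each of these sets. DDT stood 3rd or 4th from the lowest in every one of the 4 states, and MIF between 7th (state 1) and 64th (state 2). Since the states were made from the same cells whose overall ratio chose the genes, their ratios are no independent evidence. In the small state 4, where the squashed library had 9 MIF UMIs and 7 DDT UMIs, the ratios were -3.21 (-4.45 to -2.30) and -2.74 (-4.21 to -1.69).

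MIF exceeded DDT more in squashed cells in each of states 0 to 3. The cells are those whose overall ratios chose the genes, so these values are a description. In UMIs, the excess in state 2 went from 1.56 to 1 in the control to 3.53 to 1 in the squashed library. Divided by length, it was 1.58 (1.49 to 1.68) and 3.58 (3.07 to 4.18). Control cells had the highest excess in state 1, at 2.09 to 1, against 3.13 to 1 in squashed cells. The values of state 1 divided by length were 2.12 (1.93 to 2.33) and 3.17 (2.57 to 3.94).

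The ratio of MIF differed less between cell cycle phases than between states. MIF in control cells was at 296 CPM in G1, 324 CPM in S and 344 CPM in G2/M, and in squashed cells at 74.2, 85.9 and 95.4 CPM in the same order. Its log2 ratio was -1.998 (-2.12 to -1.88) in G1, -1.91 (-2.14 to -1.70) in S and -1.85 (-1.95 to -1.76) in G2/M, with overlapping intervals. DDT had ratios of -2.80 in G1 (-3.01 to -2.60), -3.05 in S (-3.47 to -2.68) and -2.95 in G2/M (-3.13 to -2.78), which also overlapped.

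Depth differed between the libraries, so the cells were also split at 7871 and 15034 UMIs into 3 groups of near equal size. In the control, MIF was at 389 CPM in the shallowest cells, 372 CPM in the middle group and 295 CPM in the deepest. In the squashed library it was at 77.2, 81.0 and 90.8 CPM in the same order. The log2 ratio of MIF was -2.33 (-2.53 to -2.14), -2.20 (-2.34 to -2.07) and -1.70 (-1.79 to -1.61), so the gap was smallest in the deepest cells. For DDT it was -3.24 (-3.59 to -2.91), -2.84 (-3.08 to -2.62) and -2.89 (-3.07 to -2.73), with overlapping intervals.

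**Figure D2:**
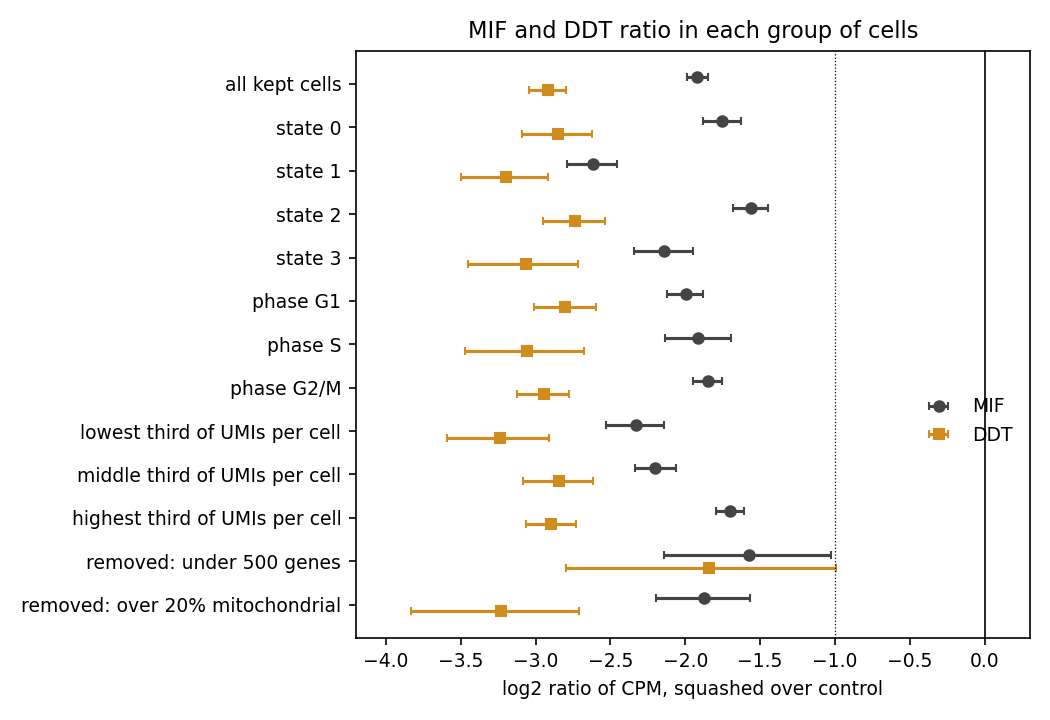
Log2 ratio of squashed over control CPM for MIF (circles) and DDT (squares) in all kept cells, by state, cell cycle phase and UMIs per cell, and in removed barcodes, with exact 95% counting intervals. A value of 0 is no difference and the dotted line at -1 is 2-fold lower, and in kept cells MIF lies between -2.62 and -1.56 and DDT between -3.24 and -2.74.

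Barcodes removed by the filters showed the same direction. Barcodes with over 20% mitochondrial UMIs and at least 500 genes numbered 270 in the control and 519 in the squashed library. They gave MIF at 147 and 40.1 CPM, a log2 ratio of -1.87 (-2.20 to -1.57). DDT there was at 110 CPM (control) and 11.5 CPM (squashed), a ratio of -3.23 (-3.83 to -2.71). Barcodes with under 500 genes, which can hold free RNA or damaged cells, gave -1.57 (-2.15 to -1.03) for MIF from 76 and 45 UMIs. For DDT they gave -1.84 (-2.79 to -0.99), from 35 and 17 UMIs. Their median mitochondrial share was also high, at 43.7% in the control and 27.9% in the squashed library.

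Per cell, a MIF UMI was found at full depth in 92.7% (91.4 to 93.8) of the control and 51.7% (49.5 to 54.0) of the squashed cells. For DDT the shares were 83.9% (82.2 to 85.6) and 24.3% (22.4 to 26.3). With every cell thinned to 2000 UMIs, which 1825 control and 1782 squashed cells reached, the share with a MIF UMI was 47.3% (45.0 to 49.7) and 14.4% (12.8 to 16.1). DDT was then found in 32.9% (30.7 to 35.1) of the control and 4.94% (3.98 to 6.05) of the squashed cells. No cell type that lacks these genes is in the sample, so the share that free RNA gives was not measured. By state at 2000 UMIs, the share with a MIF UMI ran from 35.8% to 59.6% in the control and from 11.2% to 17.6% in the squashed library. That of DDT ran from 27.4% to 39.2% and from 4.08% to 5.78%.

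At 10000 UMIs per cell, which 1190 control and 906 squashed cells reached, the mean was 3.24 MIF UMIs per control cell and 0.868 per squashed cell. For DDT it was 1.87 and 0.224. The highest cell had 11 MIF UMIs in the control and 5 in the squashed library, and 8 and 3 DDT UMIs. Cells without a MIF UMI made up 5.80% of the control, where a Poisson count of the same mean gives 3.91%, and 45.0% of the squashed library, where it gives 42.0%. For DDT they made up 17.6% of the control (15.5% by Poisson) and 79.2% of the squashed library (79.9%). The variance of MIF was 1.29 times its mean in the control and 1.14 times in the squashed library, and that of DDT 1.14 and 0.935 times. The spread between cells was thus at most 1.29 times that of counting alone. No separate set of cells without MIF or DDT stood out in the plot of UMIs per cell. In squashed cells the plot can hardly show one, since counting alone leaves 42.0% of cells without MIF and 79.9% without DDT. Cells below 10000 UMIs are not in the plot.

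**Figure D3:**
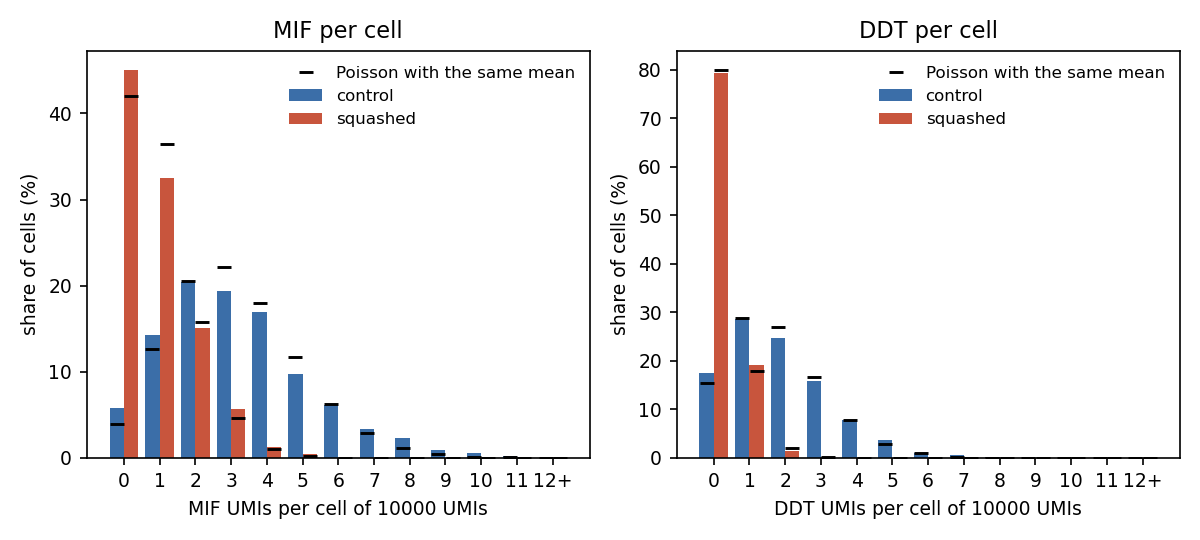
Share of cells (%) with each number of MIF (left) or DDT (right) UMIs after thinning to 10000 UMIs per cell, for the control (blue, 1190 cells) and the squashed library (red, 906 cells), with dashes for a Poisson count of the same mean. Each library forms 1 hump near its Poisson values, with a mean of 3.24 against 0.868 for MIF and 1.87 against 0.224 for DDT.

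Correlations of the 2 genes across cells were small in size once depth was equal. At full depth the Pearson correlation of log UMIs was 0.50 over 1906 control cells and 0.27 over 1930 squashed cells, where cells share their depth in both genes. At 2000 UMIs it was 0.04 (1825 cells) and 0.02 (1782 cells), and within states 0 to 3 it lay between -0.04 and 0.10. At 10000 UMIs it was 0.14 over 1190 control cells and 0.01 over 906 squashed cells. In those control cells, MIF ranked 16th among 4306 genes in correlation with DDT, where the highest gene reached 0.17 and the 95th percentile was 0.085. DDT ranked 121st in correlation with MIF, where the highest gene reached 0.28 and the 95th percentile was 0.106. The control value of 0.14 thus lay above both 95th percentiles. In squashed cells DDT ranked 2423rd and MIF 1926th. Counts this sparse lower any correlation, so a small value is not read as absence of co-expression.

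The same cells can be sorted by whether each gene was seen. At 10000 UMIs, DDT was found in 83.3% (81.0 to 85.5) of the 1121 control cells with a MIF UMI and in 68.1% (55.8 to 78.8) of the 69 without. In squashed cells it was found in 21.9% (18.3 to 25.8) of 498 cells with a MIF UMI and in 19.4% (15.6 to 23.5) of 408 without. Both genes were seen in 78.5% of control cells and 12.03% of squashed cells, and neither in 1.85% and 36.3%.

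Over the 8 combinations of library and state, the log2 CPM profile of each gene, centred on its own mean, was compared with that of 2160 genes that reached 50 CPM in a library. The genes closest to MIF by root mean square difference were SLC25A3 (0.23), MRPS24 (0.26), TUBB3 (0.28), TUFM (0.28) and VKORC1 (0.29), and DDT stood 32nd at 0.49. The median gene differed from MIF by 1.17. The genes closest to DDT were PPDPF (0.18), NDUFAB1 (0.36), TSPO (0.46), AURKAIP1 (0.47) and RNH1 (0.49), and MIF followed as the 6th at 0.49, with a median gene at 1.58. These profiles are led by the library difference, since SLC25A3 was at 708 CPM (control) and 190 CPM (squashed), and PPDPF at 228 and 26.7 CPM.

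Within 250 kb of MIF or DDT lie 23 annotated genes, and only MIF and DDT were measured. The other 5 with at least 100 UMIs over both libraries together, a limit chosen after the values had been seen, did not share 1 direction. CHCHD10, a mitochondrial protein gene, had 327 control and 406 squashed UMIs, a log2 ratio of 0.55 (0.33 to 0.76). SMARCB1, a subunit of the SWI/SNF chromatin remodelling complex that lies between CHCHD10 and MIF, had 307 and 177 UMIs, a ratio of -0.56 (-0.83 to -0.29). SLC2A11 had 178 and 132 UMIs (-0.19, -0.53 to 0.14), CABIN1 had 343 and 292 UMIs (0.00, -0.23 to 0.23), and SUSD2 had 271 and 100 UMIs (-1.20, -1.55 to -0.87). None of the 5 was as low as MIF, and the 76 measured genes of chromosome 22 had a median log2 ratio of -0.15, with 8 (10.5%, MIF and DDT among them) at least 2-fold lower against 5.11% of all measured genes.

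MIF and DDT have short transcripts, and that of MIF is rich in G and C, at 65.9% against 57.9% in DDT. Among the 235 measured genes with transcripts of over 500 and up to 800 nt, the median log2 ratio was -0.04 and 22 (9.36%) were at least 2-fold lower, against 5.11% of all measured genes, and DDT was the lowest and MIF the 9th lowest. Among the 350 measured genes with GC content over 60%, the median was -0.27 and 66 (18.9%) were at least 2-fold lower, with MIF 19th from the lowest. The 41 genes in both classes had a median of -0.16 with 11 (26.8%) at least 2-fold lower, and MIF was 5th. These classes were chosen after the ratios had been seen, and the part of length or GC content in the ratios of MIF and DDT was not tested.

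**Figure D4:**
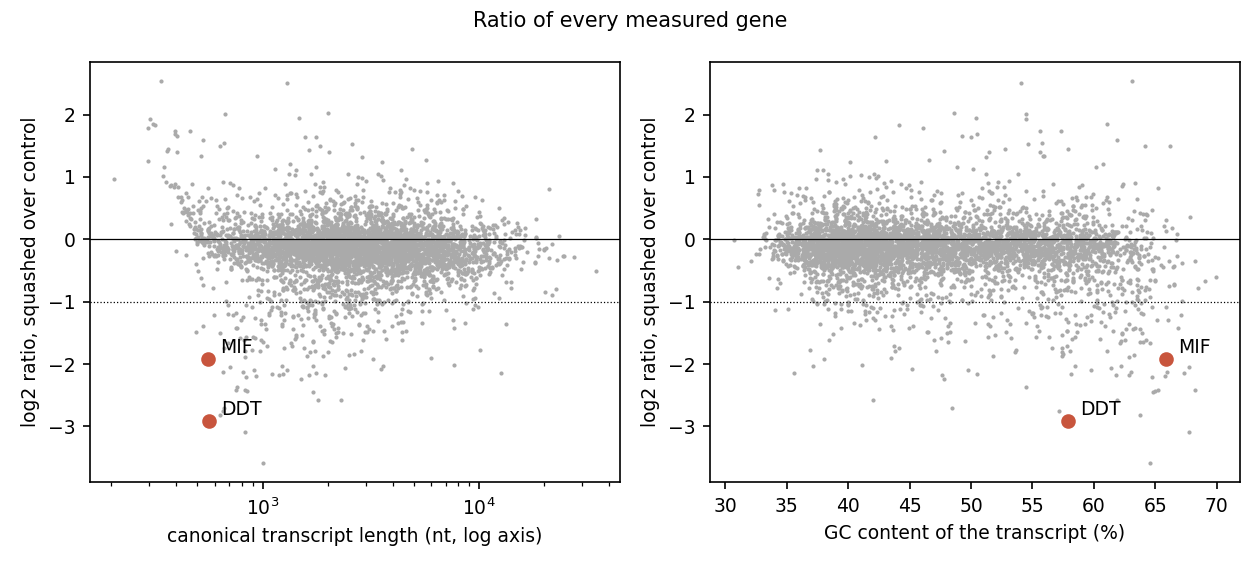
Log2 ratio of squashed over control for the measured genes (grey points) against transcript length in nt on a log axis (left) and GC content in % (right), with MIF and DDT in red and a dotted line at -1. MIF at 557 nt and 65.9% GC and DDT at 565 nt and 57.9% GC lie below most genes of like length and GC content.

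Genes that work with MIF were taken as 5 lists of 37 genes, of which 18 were measured. Of these, 1 (5.56%) was lower by 2-fold or more, near the 5.11% of all measured genes, and 0 were higher, so the count says nothing particular about the lists. The median log2 ratio was -0.05, against -0.14 for all measured genes. Among the receptors, CD44 was at 288 CPM (control) and 272 CPM (squashed) (-0.08, -0.13 to -0.03). CD74, the main receptor of both proteins, had 1 UMI in the control and 15 in the squashed library. The chemokine receptors that bind MIF were also low, with 0 and 1 UMIs for CXCR2, 1 and 2 for CXCR4, and 107 and 45 for ACKR3, whose log2 ratio was -1.004 (-1.55 to -0.50). The ligand genes were thus well counted in cells that had few UMIs of every receptor but CD44.

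Of 11 genes for binding partners and turnover of MIF, 9 were measured and all 9 lay within 2-fold, as did 93.8% of all measured genes, and their median was 0.09. COPS5, the JAB1 subunit of the COP9 signalosome, which MIF binds, had a log2 ratio of -0.22 (-0.30 to -0.14). The chaperone HSP90AA1, whose client MIF is in tumour cells, had 0.19 (0.18 to 0.21), and thioredoxin (TXN) had 0.16 (0.15 to 0.18). Both secretion genes were measured and within 2-fold, USO1 (a Golgi tether) at -0.08 and the transporter ABCA1 at 0.21. Of 6 regulators of MIF transcription, 2 were measured, the hypoxia factor HIF1A at 0.20 (0.15 to 0.25) and the glucocorticoid receptor NR3C1 at -0.14 (-0.26 to -0.03).

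Among 13 genes of signalling and targets, 4 were measured and 1 was at least 2-fold lower. It was CCND1, cyclin D1, at 262 CPM (control) and 103 CPM (squashed), a log2 ratio of -1.34 (-1.41 to -1.28). The kinases SRC (-0.32) and AKT1 (-0.13) stayed within 2-fold.

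**Figure D5:**
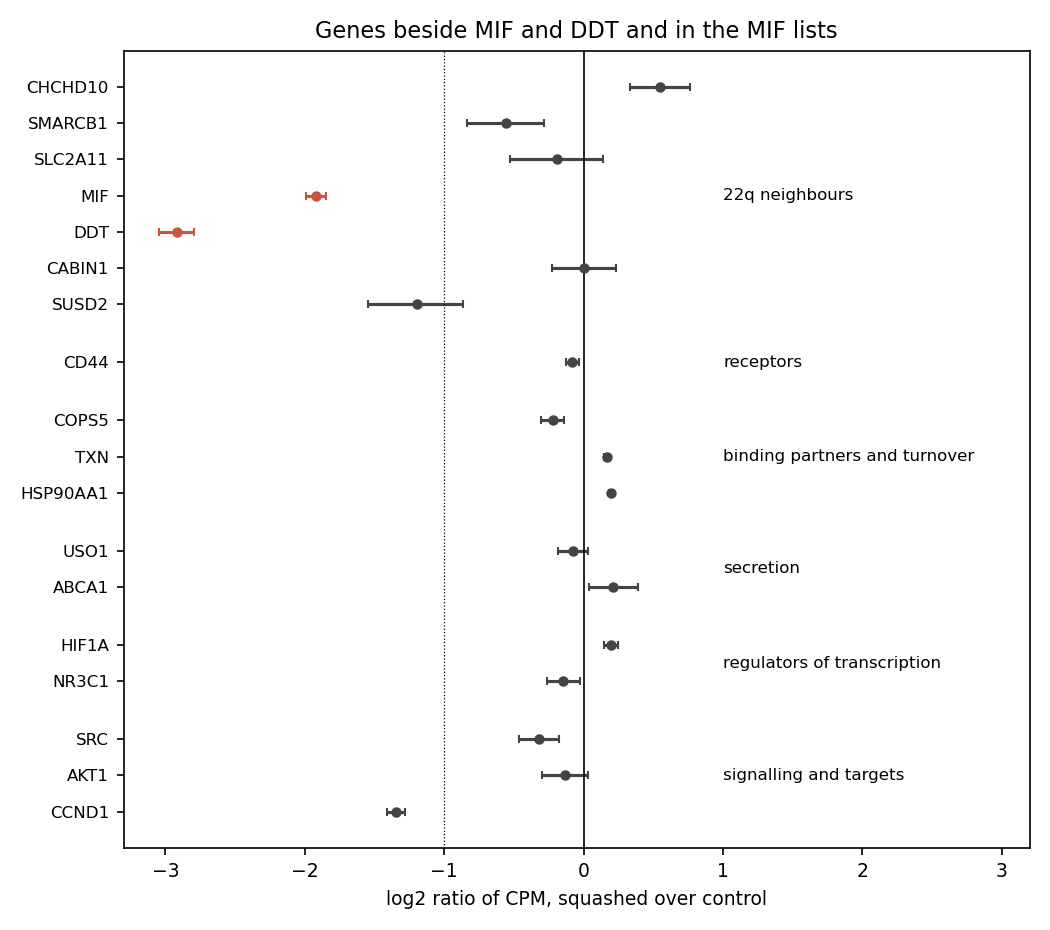
Log2 ratio of squashed over control CPM with exact 95% counting intervals. Shown are the genes within 250 kb of MIF or DDT that had at least 100 UMIs over both libraries together. Also shown are the measured genes of the 5 MIF lists whose ratios the text gives. MIF and DDT (red) lie at -1.92 and -2.92, and of the others only SUSD2 at -1.20 and CCND1 at -1.34 lie past the dotted line at -1.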

How the data were processed

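Single-cell RNA was measured in 2 libraries, 1 control and 1 squashed, with a 10x Genomics Chromium 3′ v3.1 kit. The deposited files hold whole-number counts of UMIs per gene and barcode, without normalization, per the file headers. Counting used Cell Ranger, whose version is 4.0.0 per the file headers and 5.0.1 per the labels' design text, with the GRCh38 reference. The submitters' processing notes also name R 4.3.2.

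UMIs were summed over kept cells and scaled to CPM, with a prior of 0.5 count in log2 ratios. Doublets were called with Scrublet (16 control and 15 squashed cells) and kept. Cells were thinned to 2000 or 10000 UMIs. States came from cells with at least 2000 UMIs, with 2000 variable genes, 30 principal components, 15 neighbours and Leiden resolution 0.5, and phases from the lists in Seurat 5.3.0. The tools were Python 3.11.15, scanpy 1.11.5, leidenalg 0.10.2, scipy 1.17.1, and edgeR 4.0.16 in R 4.3.3 for TMM. GENCODE 44 matched 36366 of the 36601 genes by identifier. Steps were tested on simulated data. The members and lists were chosen with earlier results of these data known. Named genes are MIF and DDT, their copy and antisense genes, all receptors, up to 4 measured genes of each other list by size of ratio, and the 5 most like profiles of each member. Some items are not reported here. Alternatives changed the cell filter, doublets, depth, scaling, clustering and the level limit.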

Additional observations from a re-analysis of the deposited data

How the results depend on the processing

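MIF stayed at least 2-fold lower in the squashed library under all 9 alternatives tried, with log2 ratios of -2.14 to -1.77, and DDT under all 10, with -2.999 to -2.77. For MIF, thinning to 2000 UMIs gave -2.14, equal weight for each cell -2.10, TMM -1.77 and centring on the median gene -1.79. For DDT, TMM gave -2.77 and the median gene -2.78. Leaving out the barcodes found in both libraries, an alternative chosen after seeing the data, gave -1.92 and -2.92. Shares of cells with a UMI follow the depth. Without thinning and at 10000 UMIs they were 92.7% and 94.2% for MIF in the control, 51.7% and 55.0% for MIF in the squashed library, 83.9% and 82.4% for DDT in the control, and 24.3% and 20.8% for DDT in the squashed library. The control correlation of MIF with DDT was 0.14 at 10000 UMIs. Phases in place of states narrowed the range of the MIF ratio to -1.998 to -1.85. With a limit of 50 CPM, 109 genes were at least 2-fold lower, as fewer genes were measured. With 1 library per group, no library could be left out. No paired analysis was possible because each group has 1 library.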
